A study of Mus musculus with 8 samples.

Results

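The mitochondrial ribosomal proteins are the nuclear-encoded protein components of the ribosome that works inside mitochondria. They were chosen here by name, as the protein-coding genes whose symbol starts with Mrpl (large subunit) or Mrps (small subunit), with the biotype taken from the GENCODE M21 annotation. This gave 77 genes of the 33105 listed in the deposited count table, 48 of the large subunit and 29 of the small subunit. A further 4 entries with such symbols are annotated as pseudogenes and were left out, and Mrpl53 was not analysed here. The comparison was between hearts of C57BL/6J mice in which surgery had created mitral regurgitation, backflow through the valve between left atrium and left ventricle (MR, 4 libraries) and hearts of C57BL/6J mice given a Sham procedure (4 libraries). The series was made to look for pathways and characteristic genes of the hypertrophy that follows volume overload by mitral regurgitation. No transgene or further agent is named for either group. The sources used here do not give the age of the animals, the part of the heart sampled, the time since the operation or whether each library is 1 animal.

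The mitochondrial ribosome translates the few messenger RNAs of the mitochondrial genome, all of which code for subunits of the oxidative phosphorylation complexes. Its RNAs come from the mitochondrial genome, whereas its proteins are made in the cytosol and imported, so that each ribosome needs both genomes. The large subunit holds the peptidyl transferase centre and sits at the inner membrane, and the small subunit decodes the messenger RNA. The heart depends on oxidative phosphorylation for most of its ATP, and in humans inherited defects of MRPL3, MRPL44 and MRPS22 are known causes of hypertrophic cardiomyopathy.

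Total counts were 42291511 to 58658094 per library. The 77 genes together took 0.328%, 0.349%, 0.310% and 0.329% of the counts in MR replicates 1 to 4, against 0.375%, 0.310%, 0.307% and 0.320% in Sham replicates 1 to 4. The smallest count of any of them in any library was 313, and counting error was not measured apart from the spread between libraries. Sham replicate 1 stood apart from the other 7 libraries for these genes, as described further on, and the medians that move with it are also given without it. The cardiomyocyte markers (Myh6, Tnnt2, Actn2, Ryr2 and Pln) summed to 26346 to 30344 CPM (counts scaled to the library total times its TMM factor, as for every CPM and RPKM here) in MR and 30319 to 36249 CPM in Sham. Fibroblast markers summed to 723 to 796 CPM in MR and 679 to 734 CPM in Sham. Of these 5 markers 2 were estimated lower in MR. Only Col1a1 was called, at a mean of 75.8 CPM in MR and 43.4 CPM in Sham (edgeR FDR 0.0483). Endothelial markers summed to 691 to 741 CPM in MR and 587 to 722 CPM in Sham, with 1 of 5 estimated lower in MR. Smooth muscle and pericyte markers summed to 932 to 1053 CPM in MR and 871 to 951 CPM in Sham, with 1 of 4 estimated lower in MR. Macrophage markers summed to 149 to 165 CPM in MR and 162 to 179 CPM in Sham, with 2 of 5 estimated lower in MR. Erythroid markers summed to 331 to 625 CPM in MR and 274 to 500 CPM in Sham. No endothelial, smooth muscle, pericyte, macrophage or erythroid marker was called. All 4 liver or fat markers stayed under 1 CPM in every library.

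None of the 77 genes passed a false discovery rate (FDR) of 0.05 in the edgeR quasi-likelihood test of MR against Sham, among 16603 genes tested. Over all genes tested 76 passed it, or 0.458%. DESeq2 and limma-voom also called none of the 77. At an unadjusted p under 0.05 the edgeR test marked 2 members, Mrps35 and Mrpl39, which is 2.60% of the members beside 15.1% of all genes tested. With Sham replicate 1 left out this count was 6, with Sham replicate 3 left out it was 8, and with any other library left out it was between 1 and 4. Over all genes, 93 passed the FDR threshold without Sham replicate 1 and 887 without Sham replicate 3. The share of all genes at an unadjusted p under 0.05 is not given for these settings, so their counts cannot be set against the 15.1%. In all 77 genes the MR values overlapped the Sham values, whereas 8.1% of all genes tested had groups that did not overlap. The lowest FDR of a member was 0.196, for Mrps35, which ranked 1153 by p among the genes tested.

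The differences were small as well as uncalled. The log2 fold changes (MR over Sham) of the members lay between −0.26 and 0.15, and their standard errors between 0.0676 and 0.148, with a median of 0.09. The 95% interval of every member lay within a 1.5-fold difference in either direction, for each gene taken singly. The lowest interval bound was −0.51 on the log2 scale, a fold of 0.701, for Mrpl14, and the highest was 0.34, a fold of 1.27, for Mrps2. Of the 77 estimates 58 were below 0, or 75.3%, where 49.6% of all genes tested were below 0. The median member was at −0.05 and the median of all genes tested at 0.00. Without Sham replicate 1 only 27 members were below 0 and the median was 0.04, so the lean did not hold without that library. Without MR replicate 3 there were 46 below 0, with a median of −0.02, and with any other library left out 55 to 65. With library totals in place of TMM factors all genes moved up, the median gene to 0.05, and 40 members were below 0; the member median stayed 0.05 below that of all genes. With limma-voom, which weights libraries by quality, 40 were below 0 and the member median was 0.01 below that of all genes. The cardiomyocyte marker sums given above lay lower in the MR libraries than in the Sham libraries, apart from MR replicate 1 against Sham replicate 3. All 5 cardiomyocyte markers had estimates below 0 and none was called. The part of these and of the fibroblast, endothelial, smooth muscle, macrophage and erythroid markers in the lean was not tested. In bulk tissue fewer cells of a type and less RNA per cell cannot be told apart.

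**Figure D1:**
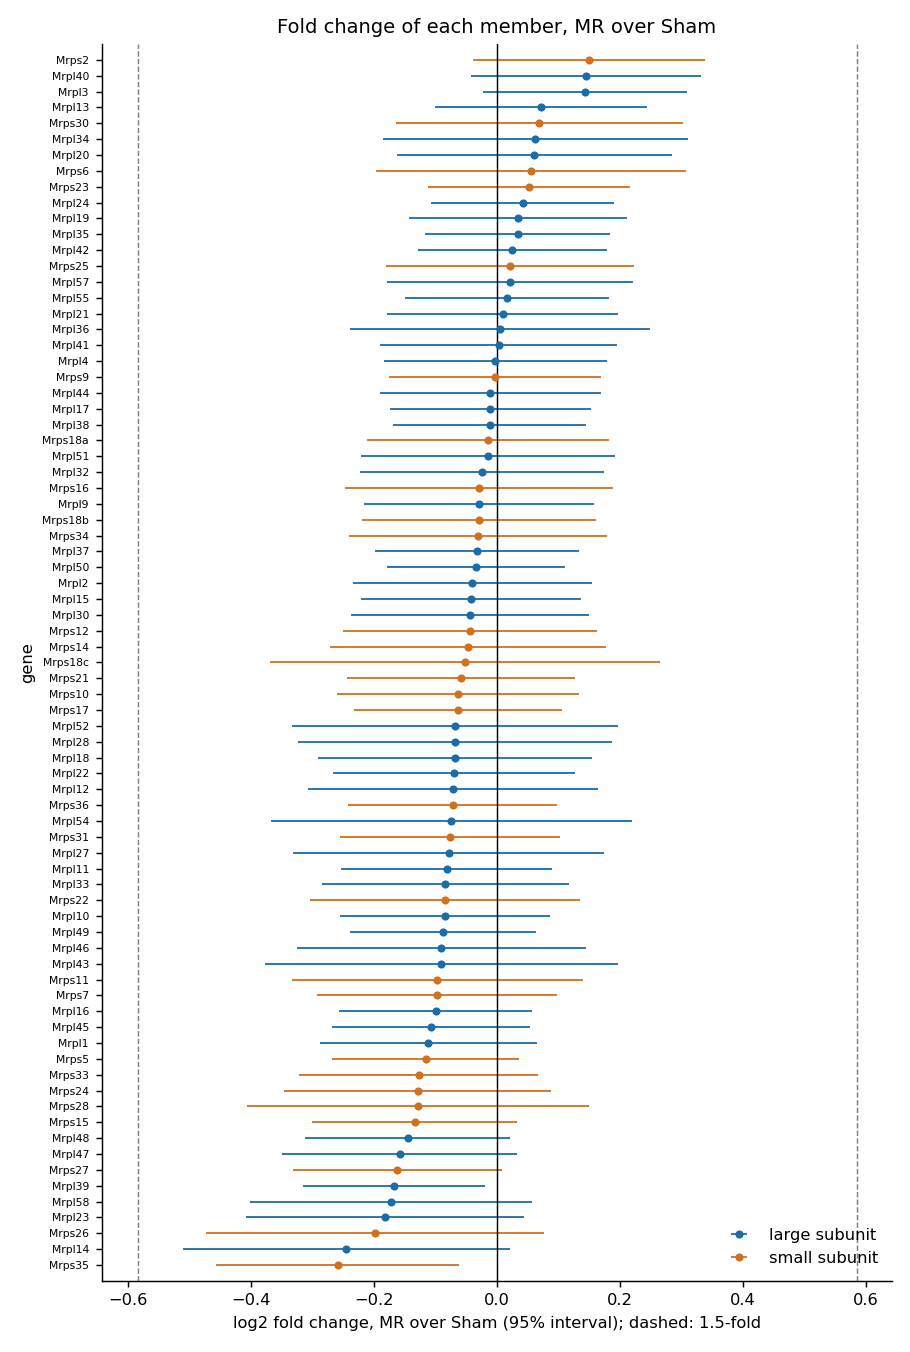
Log2 fold change (MR over Sham) of each of the 77 genes with its 95% interval from the edgeR quasi-likelihood fit. The genes of both subunits are ordered together by estimate, and colours mark the subunit. The dashed lines mark a 1.5-fold difference. All 77 intervals lie between the dashed lines, and 2 of them, for Mrps35 and Mrpl39, leave out 0.

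The subunits differed little from each other. In the large subunit 34 of 48 genes (70.8%) were below 0, with a median log2 fold change of −0.04 and a range of −0.25 to 0.14. In the small subunit 24 of 29 genes (82.8%) were below 0, with a median of −0.06 and a range of −0.26 to 0.15. The large subunit median was thus 0.02 above that of the small subunit, which is less than the standard deviation of that difference between libraries (0.0257 on the log2 scale). Without Sham replicate 1 the medians were 0.05 (large) and 0.00 (small) and their difference was 0.0465, above that standard deviation. The difference was also above it without Sham replicate 2 (0.0271), Sham replicate 3 (0.0367), MR replicate 3 (0.0346) or MR replicate 4 (0.0342). It was above it too with limma-voom (0.0273) and with subunits assigned by structure (0.0265), as described below. That standard deviation is of single libraries, so it is no test of the difference. With library totals the large subunit median was 0.00, just on the positive side, while the median of all genes was 0.05, and with limma-voom it was also 0.00.

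Symbols and structure do not match for 3 members. The proteins of Mrps30 and Mrps18a sit in the large subunit of the mammalian mitochondrial ribosome, and the protein of Mrps36 is a component of the oxoglutarate dehydrogenase complex of the citric acid cycle. With Mrps30 and Mrps18a moved and Mrps36 left out, the large subunit held 50 genes with a median of −0.04 and the small subunit 26 genes with a median of −0.06, and without Sham replicate 1 these medians were 0.05 and −0.0028. Members listed with a counterpart in bacterial ribosomes (43 genes, 32 below 0) had a median of −0.05. Those listed without one (32 genes, 25 below 0) had a median of −0.07. Mrps36, Mrps18a and Mrps18b were counted among those without one. When Sham replicate 1 was left out, the medians were 0.05 (with) and 0.01 (without). Mrpl55 and Mrps28 were left out of that split because naming schemes differ on them.

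**Figure D2:**
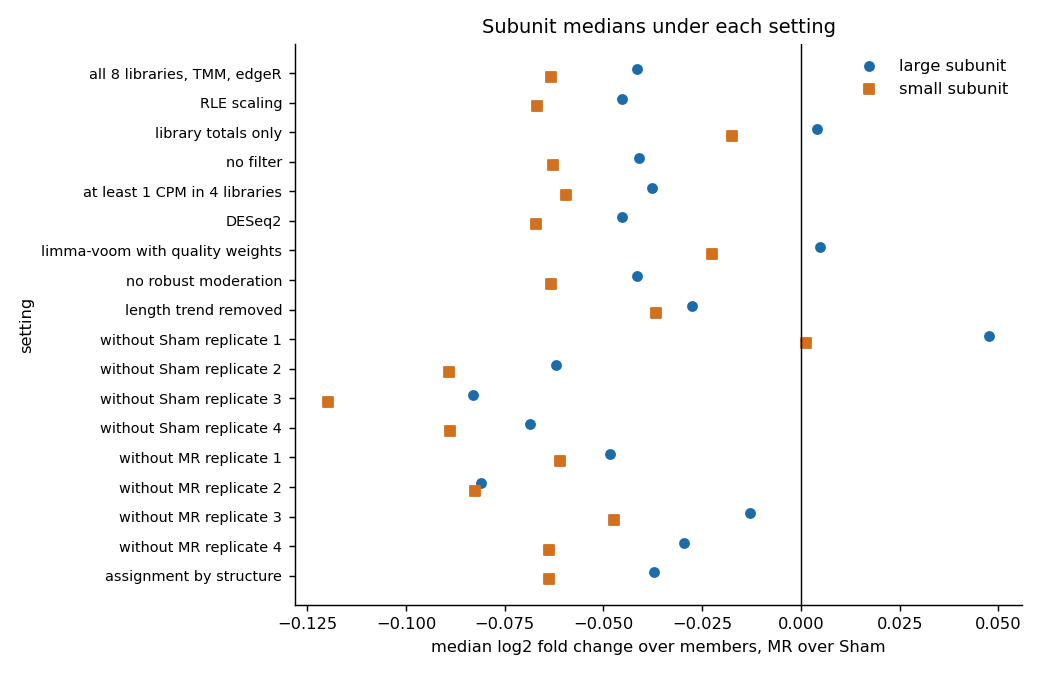
Median log2 fold change (MR over Sham) of the large subunit and the small subunit genes under each way of processing the counts, including each library left out in turn. The medians run from −0.08 to 0.05 for the large subunit and from −0.12 to 0.00 for the small subunit when a library is left out, with the highest values without Sham replicate 1; with library totals only and with limma-voom, the large subunit median lies just on the positive side of 0, and library totals moved the median of all genes to 0.05.

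Among the large subunit genes, Mrpl39 had the lowest p. Its protein is one of those added to the mitochondrial ribosome and has no bacterial counterpart. Mrpl39 (chromosome 16, 84717576 to 84735742, minus strand, GRCm38) had 67.6, 72.2, 65.3 and 66.5 CPM in MR replicates 1 to 4, against 77.9, 74.1, 70.0 and 82.9 CPM in Sham replicates 1 to 4. MR replicate 2 lay above Sham replicate 3, so the groups overlapped by that library alone. The means were 67.9 ± 3.0 CPM in MR and 76.2 ± 5.50 CPM in Sham (SD, n = 4 each), with a log2 fold change of −0.17 (SE 0.07, edgeR FDR 0.270). Without Sham replicate 1 the log2 fold change was −0.16, so this difference did not rest on that library.

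Mrpl14, a protein of the large subunit interface that is bound by an assembly factor in humans, had the largest negative estimate of its subunit. It was at 27.7, 29.4, 22.7 and 25.7 CPM in MR replicates 1 to 4 and at 40.0, 26.9, 27.2 and 30.9 CPM in Sham replicates 1 to 4. Its log2 fold change of −0.25 (SE 0.12, edgeR FDR 0.375) came to −0.11 without Sham replicate 1, the highest library. Mrpl23, Mrpl47, Mrpl48 and Mrpl58 had estimates of −0.18, −0.16, −0.15 and −0.17 with edgeR FDR values of 0.442, 0.431, 0.404 and 0.478. These estimates were −0.13, −0.09, −0.09 and −0.07 without Sham replicate 1. Mrpl58 is the peptidyl-tRNA hydrolase that frees stalled ribosomes, and it is built into the large subunit. Mrpl47 shares 24.2% of its exon bases with genes on the opposite strand, and Mrpl23 and Mrpl48 each have a named pseudogene. Because it is not given whether counting used the strand, reads of such genes may be split or shared, and their values are uncertain.

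Mrpl3 and Mrpl40 were at the positive end of the large subunit. Mrpl3 (chromosome 9, 105053239 to 105079888, plus strand), which codes for a protein with a bacterial counterpart, had 101, 108, 96.7 and 101 CPM in MR replicates 1 to 4, against 102, 90.1, 95.1 and 80.9 CPM in Sham replicates 1 to 4. The Sham values spread widely and 1 of them lay above 3 of the MR values. The means were 102 ± 4.66 CPM in MR and 92.1 ± 9.02 CPM in Sham (SD, n = 4 each), with a log2 fold change of 0.14 (SE 0.08, edgeR FDR 0.411). Mrpl40 averaged 20.7 ± 1.24 CPM in MR and 18.7 ± 2.03 CPM in Sham (SD, n = 4 each), with a log2 fold change of 0.14 and an edgeR FDR of 0.464.

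Among the large subunit genes picked for their role, none differed beyond the replicate spread. Mrpl12 codes for a stalk protein of the ribosome that also binds the mitochondrial RNA polymerase. It had 99.0, 106, 86.9 and 100.7 CPM in MR replicates 1 to 4, against 131, 96.0, 88.5 and 97.7 CPM in Sham replicates 1 to 4. Only Sham replicate 1 lay outside the range of the MR libraries, and the log2 fold change was −0.07 (SE 0.11, edgeR FDR 0.806). Mrpl11, a protein at the base of the stalk, had 36.2, 40.1, 34.5 and 37.4 CPM in MR replicates 1 to 4, against 45.1, 37.9, 36.8 and 37.0 CPM in Sham replicates 1 to 4. Its log2 fold change was −0.08 (edgeR FDR 0.682). Mrpl44, whose human counterpart is a cardiomyopathy gene, averaged 42.4 ± 3.13 CPM in MR and 42.8 ± 4.6 CPM in Sham (SD, n = 4 each). Its log2 fold change was −0.01 under TMM scaling and 0.03 with library totals, and its 95% interval ran from −0.19 to 0.17.

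In the small subunit Mrps35 had the largest negative estimate of all members. It codes for a small subunit protein without a bacterial counterpart. Mrps35 (chromosome 6, 147042764 to 147073991, plus strand) had 58.7, 62.1, 55.4 and 63.2 CPM in MR replicates 1 to 4, against 84.6, 70.4, 59.8 and 72.0 CPM in Sham replicates 1 to 4. All MR values lay below all Sham values but that of Sham replicate 3. The means were 59.9 ± 3.5 CPM in MR and 71.7 ± 10.2 CPM in Sham (SD, n = 4 each), with a log2 fold change of −0.26 (SE 0.09, 95% interval −0.46 to −0.06, edgeR FDR 0.196). Its edgeR FDR came to 0.0273 without Sham replicate 3, with a log2 fold change of −0.34, and to 0.0426 with no filter on low counts. Over all alternatives its FDR ran from 0.0273 to 0.417.

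Mrps27, a small subunit protein of the pentatricopeptide repeat family, had 29.0, 30.1, 26.0 and 25.8 CPM in MR replicates 1 to 4, against 33.4, 28.0, 32.3 and 30.5 CPM in Sham replicates 1 to 4. Its log2 fold change was −0.16 (SE 0.08, edgeR FDR 0.359), and 24.2% of its exon bases overlap a gene on the opposite strand. Mrps26, Mrps15 and Mrps5 followed at −0.20, −0.13 and −0.12, with edgeR FDR values of 0.498, 0.446 and 0.469, and without Sham replicate 1 they came to −0.05, −0.08 and −0.07. Mrps2, which codes for a protein of the bacterial core, had the highest estimate of the subunit. It had 31.2, 32.5, 30.9 and 34.0 CPM in MR replicates 1 to 4, against 32.3, 27.4, 31.7 and 24.5 CPM in Sham replicates 1 to 4. The log2 fold change was 0.15 (SE 0.09, edgeR FDR 0.450), and 2 of the Sham libraries lay within the range of the MR libraries.

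The small subunit genes picked for their role lay near 0. Mrps12, the counterpart of the bacterial decoding centre protein S12, had 16.3, 16.3, 13.9 and 16.3 CPM in MR replicates 1 to 4, against 19.2, 14.7, 15.6 and 15.4 CPM in Sham replicates 1 to 4. Its log2 fold change was −0.04, and with library totals it was 0.00. Mrps16 and Mrps34 were both at −0.03, and at 0.02 and 0.01 with library totals. Mrps22, a cardiomyopathy gene in humans, was at −0.08 (SE 0.10, edgeR FDR 0.747). Mrps34 shares 77.8% of its exon bases with Nme3 and Mapk8ip3, so its value is uncertain.

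The Mrps18 paralogs are 3 genes descended from a single bacterial protein, and their products take different places in the ribosome. Mrps18c, the small subunit form closest to the bacterial protein, had 8.39, 9.90, 7.27 and 7.75 CPM in MR replicates 1 to 4, against 11.5, 8.29, 7.25 and 7.47 CPM in Sham replicates 1 to 4. Mrps18b had 13.2, 15.4, 16.3 and 13.2 CPM in MR, against 14.5, 14.0, 15.1 and 15.6 CPM in Sham. Mrps18a, the large subunit form, had 40.3, 44.9, 39.9 and 43.0 CPM in MR, against 51.3, 42, 39.1 and 37.5 CPM in Sham. The groups overlapped in each paralog. The log2 fold changes were −0.05 for Mrps18c, −0.03 for Mrps18b and −0.01 for Mrps18a, of which Mrps18b and Mrps18a came to 0.01 and 0.03 with library totals. Mrps18b and Mrps18c share 30.5% and 23.2% of their exon bases with other genes. Mrps30 was at 0.07 (SE 0.11, edgeR FDR 0.814) and Mrps36, which has 3 named pseudogenes, at −0.07 (SE 0.08, edgeR FDR 0.720).

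The levels of the members were compared per length, as RPKM, the CPM divided by the kilobases of exon, with the union of annotated exons as length, which lowers the value of a gene with long rare isoforms. Over all 8 libraries the large subunit genes had mean levels of 2.90 to 65.7 RPKM with a median of 16.5 RPKM, and the small subunit genes 2.29 to 97.5 RPKM with a median of 10.5 RPKM. The members thus spanned a 42.6-fold range in RPKM, and a 26.8-fold (MR) and 25.4-fold (Sham) range in mean CPM. Most of their proteins occur in equal numbers in the ribosome. Exon length was 739 bases for Mrps21, the highest in RPKM, and 8079 bases for Mrps10, the lowest. In mean CPM the lowest was Mrps18c, at 8.33 in MR and 8.63 in Sham. The part of exon length in the RPKM range was not tested. The order of levels was led by Mrps21, at 95.5 RPKM in MR and 99.4 RPKM in Sham, and Mrps23, at 89.8 RPKM in MR and 86.7 RPKM in Sham. Their library values overlapped in both groups. Both genes are measured in the same libraries, and their order within each library was not tested. Mrpl12 came next, at 64.1 RPKM in MR and 67.4 RPKM in Sham, and then Mrpl42, at 60.7 RPKM in MR and 59.6 RPKM in Sham, again with overlapping libraries.

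Mrpl55 and Mrps36 were the other genes among the 3 highest of their subunit. Mrpl55 was at 50.1 RPKM in MR and 49.6 RPKM in Sham, and Mrps36 was at 47.3 RPKM in MR and 49.7 RPKM in Sham. At the low end were Mrps10, at 2.24 RPKM in MR and 2.34 RPKM in Sham, Mrpl33, at 2.82 RPKM in MR and 2.99 RPKM in Sham, Mrps30, at 3.81 RPKM in MR and 3.64 RPKM in Sham, and Mrpl17, at 3.83 RPKM in MR and 3.86 RPKM in Sham. Mrps10, Mrpl33, Mrps30 and Mrpl17 have 8079, 7326, 6666 and 7605 bases of exon, beside a median of 2533 bases over all members. The spread between members far exceeded the difference between groups for any member. Of the genes with the highest levels, Mrps21, a small subunit protein, had 69.6, 77.2, 71.1 and 64.4 CPM in MR replicates 1 to 4, against 85.2, 67.0, 66.6 and 75.1 CPM in Sham replicates 1 to 4. Mrpl42, the member with the highest mean CPM, had 230.5, 235, 214 and 215 CPM in MR replicates 1 to 4, against 237, 218, 201 and 223 CPM in Sham replicates 1 to 4. Both genes had groups that overlapped over most of their range.

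**Figure D3:**
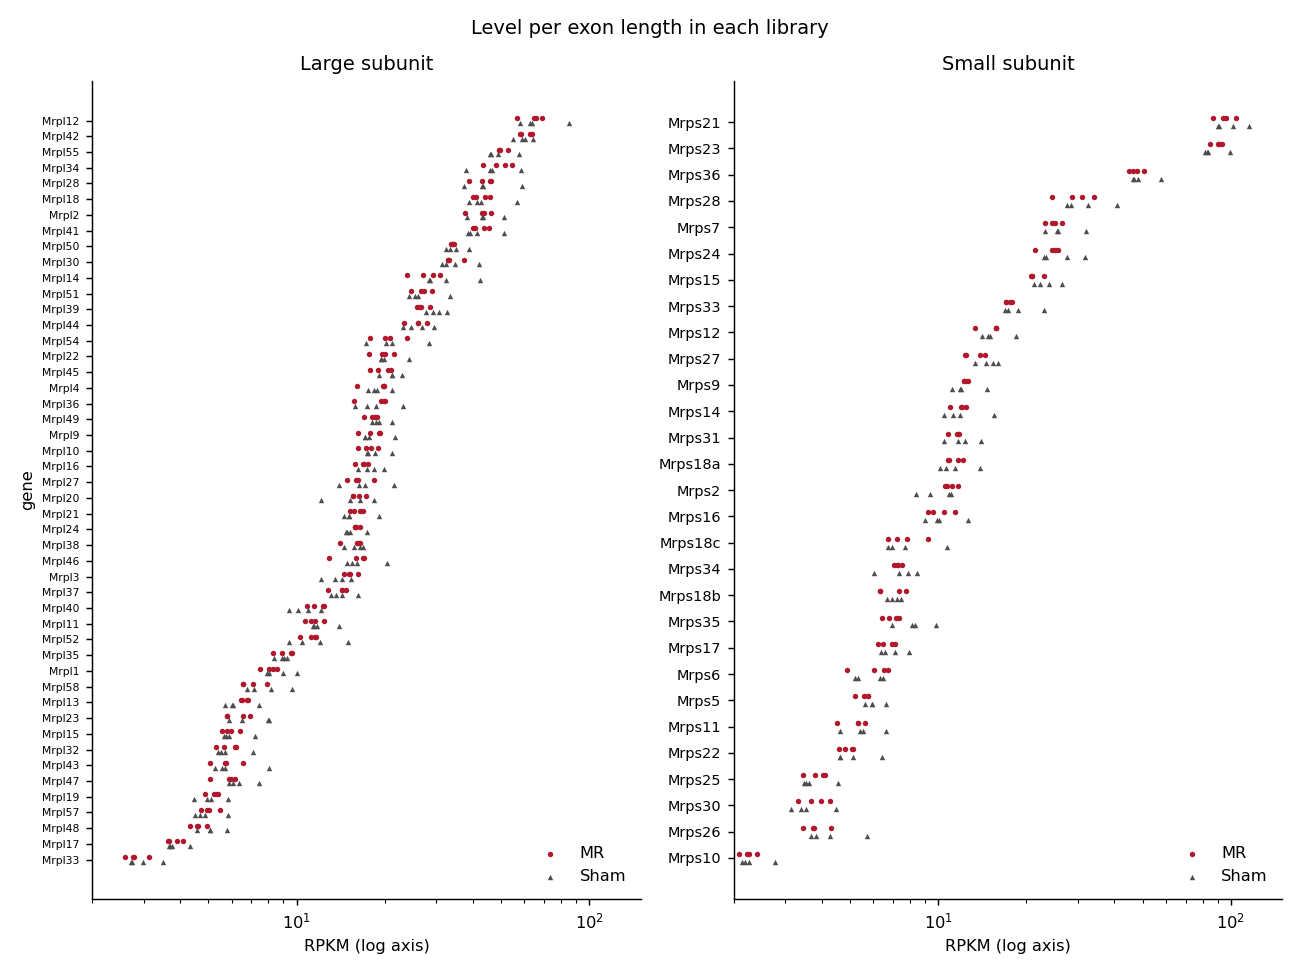
Level of each of the 77 genes in RPKM on a log axis, 1 point per library, with MR and Sham libraries in different colours and the genes ordered by mean level within each subunit. Levels run from 2.29 RPKM for Mrps10 to 97.5 RPKM for Mrps21, and the MR and Sham points overlap in every gene.

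The variation the members did share lay between libraries within groups. Relative to the mean of each gene over the 8 libraries, the median large subunit gene was at 0.00, 0.08, −0.14 and −0.02 on the log2 scale in MR replicates 1 to 4, against 0.25, −0.03, −0.07 and −0.05 in Sham replicates 1 to 4. The median small subunit gene was at −0.01, 0.05, −0.12 and −0.04 in MR replicates 1 to 4, against 0.27, −0.05, −0.11 and −0.01 in Sham replicates 1 to 4. Both subunits were highest in Sham replicate 1 and lowest in MR replicate 3. Within a library the 2 subunits lay within 0.04 of each other, with differences (large minus small) of 0.01, 0.03, −0.01 and 0.02 in MR and −0.01, 0.02, 0.03 and −0.04 in Sham.

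Sham replicate 1 had the highest value of all 8 libraries in 68 of the 77 genes (88.3%), 43 of the large and 25 of the small subunit. Over all genes tested it was the highest in 22.2%. MR replicate 3 was the lowest library in 35 members (45.5%). The median coefficient of variation of the members was 6.34% in MR and 12.3% in Sham, and 5.75% over Sham replicates 2 to 4. For all genes tested the same medians were 9.40% in MR, 12.4% in Sham and 9.58% over Sham replicates 2 to 4. Without Sham replicate 1 the members therefore varied about as little in Sham as in MR.

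**Figure D4:**
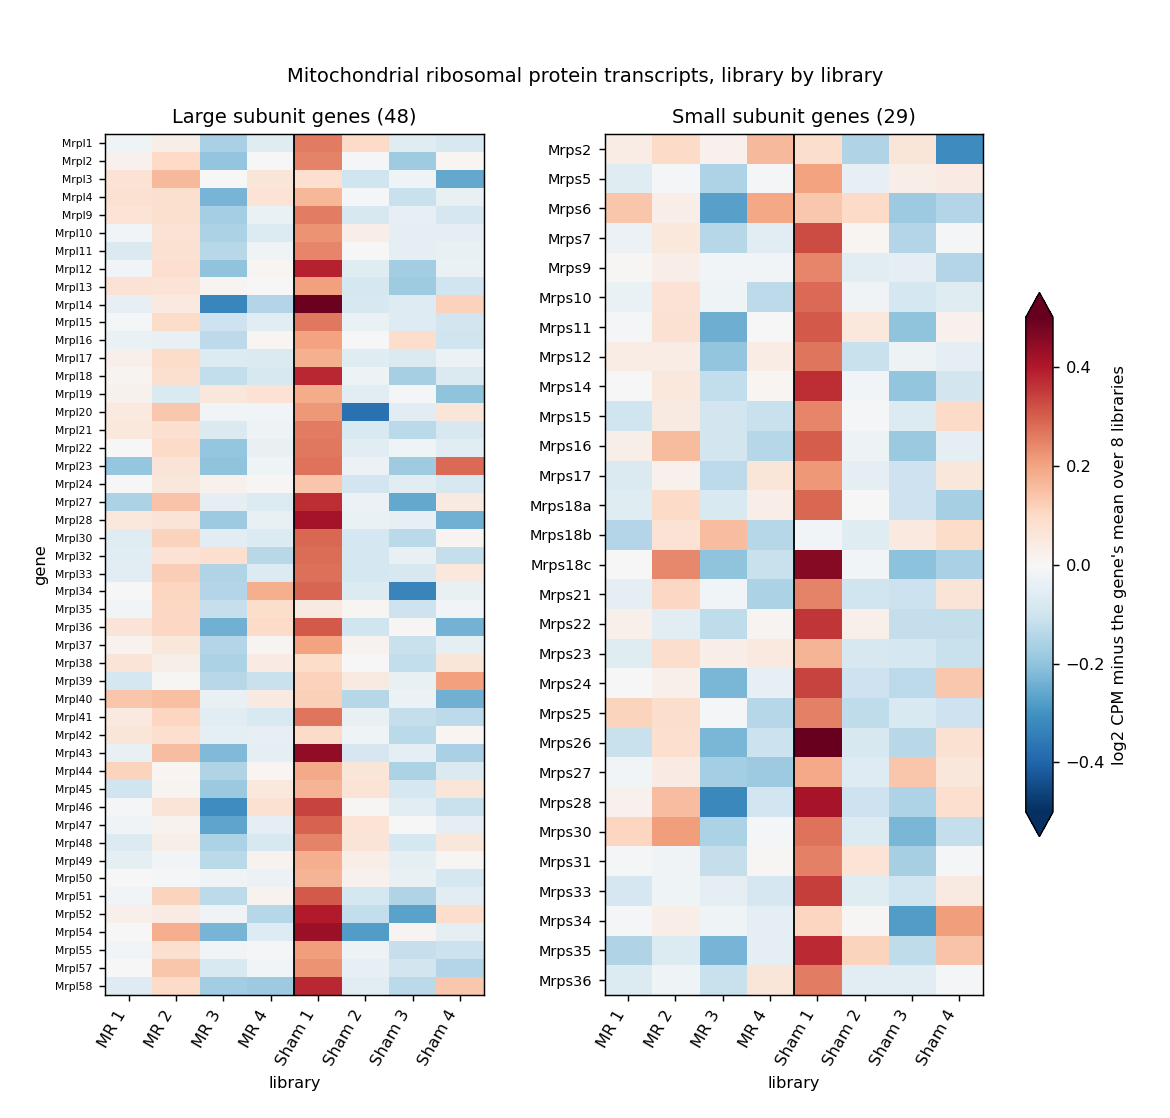
Heat map of the 77 genes (rows, by subunit) in the 8 libraries (columns, MR left of Sham), coloured by the log2 difference of the CPM from the gene's mean over the libraries. Sham replicate 1 is the highest library in 68 of the 77 genes, and MR replicate 3 the lowest in 35.

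The position of Sham replicate 1 was not limited to these genes. It was the highest library in all 76 nuclear genes of oxidative phosphorylation and in 74 of 78 cytosolic ribosomal protein genes. Transcript length moved with it over all genes: genes with under 2795 bases of exon had a median of 0.14 above their mean there on the log2 scale, and genes with over 5391 bases a median of −0.11. The members are shorter than the average gene, with a median exon length of 2533 bases beside 3943 bases for all genes tested. Their deviation in Sham replicate 1 had medians of 0.26, 0.27 and 0.25 in the 43 short, 20 middle and 14 long members. With a trend over exon length removed from each library 55 members were below 0 and none was called; the part of length in the members' position was otherwise not tested. Neutrophil markers summed to 3.0 to 5.82 CPM in MR and 8.10 to 56.8 CPM in Sham, with 31.0 CPM in Sham replicate 1 and the highest sum, 56.8 CPM, in Sham replicate 4. All 5 of these markers were below 0 and none was called, and their part in the members' values was not tested.

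**Figure D5:**
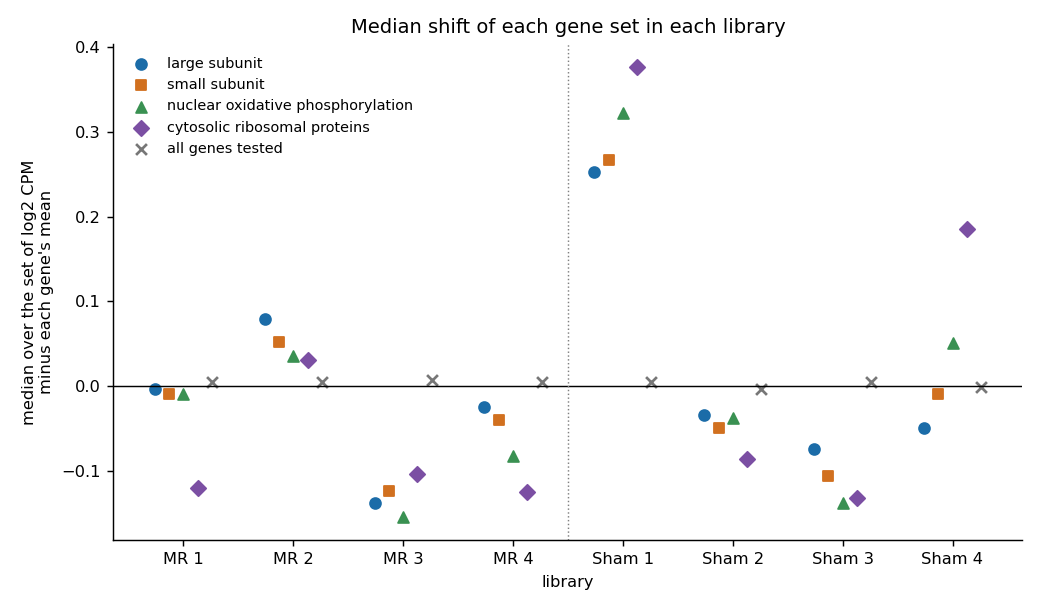
Median log2 difference of each gene set from the gene means over the 8 libraries, by library, with MR left of Sham, for the large subunit, the small subunit, nuclear oxidative phosphorylation genes, cytosolic ribosomal protein genes and all genes tested. The large subunit median is at 0.25 and the small subunit median at 0.27 in Sham replicate 1, and between −0.14 and 0.08 in the other libraries.

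The promoters of the members were examined because nuclear genes for mitochondrial proteins are known targets of the activators NRF1, the ETS factor GABP (NRF2) and YY1. RefSeq windows of GRCm38.p6, 250 bases before to 50 bases after the annotated start, were matched for 68 of the 77 genes. A gene with several windows was counted once, where any of them held the letters. The NRF1 motif, searched as GCGCA, any base and GCGC, was found on either strand in 13 genes (19.1%), beside 7.17% of 17492 coding genes. CCGGAAGT, an ETS motif, was in 12 (17.6%) beside 5.69%, and AAGATGGCG, a YY1 motif, in 8 (11.8%) beside 2.14%. At least 1 of these 3 was in 31 genes (45.6%), beside 13.9% of all coding genes. All 3 motifs hold the bases CG. The median number of CG in a window was 21 in the members and 13 in all coding genes, and the median GC content was 58.0% and 56.3%. The part of this composition in the motif counts was not tested. In 2 members a pair of the motifs occurred, with no overlap between them. CCAAT was in 26 genes (38.2%) beside 42.3%, and TATAAA in 5 (7.35%) beside 14.8%. These are matches of letters and not measured binding.

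The windows of 4 members are shown 5′ to 3′ on the strand of the gene with the motif in capitals. Mrpl39 and Mrpl3 had the lowest p among large subunit genes below and above 0, Mrpl42 has the highest mean CPM, and Mrps11 overlaps another member at its start. The Mrpl39 window (chr16:84735195-84735494, minus strand) holds the NRF1 letters from position −125 relative to the start. The Mrpl3 window (chr9:105053018-105053317, plus strand) holds the ETS letters from −19. The Mrpl42 window (chr10:95501900-95502199, minus strand) holds the YY1 letters from 28. The Mrps11 window (chr7:78782881-78783180, plus strand) holds the reverse complement of the YY1 letters from −108.
Mrpl39: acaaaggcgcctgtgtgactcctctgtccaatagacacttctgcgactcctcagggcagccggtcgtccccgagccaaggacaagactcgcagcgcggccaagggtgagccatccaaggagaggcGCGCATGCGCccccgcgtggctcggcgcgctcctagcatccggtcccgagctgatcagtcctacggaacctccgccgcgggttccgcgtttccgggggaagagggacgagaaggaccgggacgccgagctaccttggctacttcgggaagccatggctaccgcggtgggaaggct
Mrpl3: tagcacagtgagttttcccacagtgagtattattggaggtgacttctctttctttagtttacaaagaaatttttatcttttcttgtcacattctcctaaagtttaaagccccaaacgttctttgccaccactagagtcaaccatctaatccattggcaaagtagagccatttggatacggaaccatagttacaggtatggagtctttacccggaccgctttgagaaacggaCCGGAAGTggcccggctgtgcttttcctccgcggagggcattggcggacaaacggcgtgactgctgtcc
Mrpl42: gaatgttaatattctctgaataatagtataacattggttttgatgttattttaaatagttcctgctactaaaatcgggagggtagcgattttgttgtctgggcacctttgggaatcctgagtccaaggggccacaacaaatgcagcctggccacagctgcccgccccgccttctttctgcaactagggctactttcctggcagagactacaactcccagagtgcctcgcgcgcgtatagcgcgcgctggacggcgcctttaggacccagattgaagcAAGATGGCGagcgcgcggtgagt
Mrps11: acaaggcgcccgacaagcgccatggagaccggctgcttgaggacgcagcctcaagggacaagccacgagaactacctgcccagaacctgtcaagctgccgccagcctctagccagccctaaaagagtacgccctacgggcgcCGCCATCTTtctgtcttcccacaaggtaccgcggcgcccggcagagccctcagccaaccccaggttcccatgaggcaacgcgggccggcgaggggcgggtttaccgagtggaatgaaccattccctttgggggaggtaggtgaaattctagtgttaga

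The median log2 fold change was −0.04 in the 13 members with the NRF1 letters, of which 12 were below 0, and −0.06 in the 55 without, of which 39 were below 0. It was −0.08 in the 12 with the ETS letters, of which 11 were below 0, and −0.04 in the 56 without, of which 40 were below 0. It was −0.02 in the 8 with the YY1 letters, of which 5 were below 0, and −0.06 in the 60 without, of which 46 were below 0. All 6 medians lay between 0.035 and 0.0478 when Sham replicate 1 was left out. None of these members was called, and the differences were not tested.

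Many members start close to another gene. For 33 of the 77 (42.9%) the GENCODE start of a protein-coding gene on the opposite strand lay within 1000 bases, beside 12.6% of the 18025 protein-coding genes in the table. This held for 24 of 48 large subunit genes (50%) and 9 of 29 small subunit genes (31.0%). In 18 of the 33 the genes point away from each other, and in 15 their first parts overlap. Mrpl46 and Mrps11, one from each subunit, overlap at their starts, which lie 412 bases apart. Mrpl46 had 22.6, 23.8, 18.3 and 24.0 CPM in MR replicates 1 to 4, against 28.8, 22.8, 21.9 and 21.1 CPM in Sham replicates 1 to 4. Mrps11 had 11.5, 12.2, 9.76 and 11.6 CPM in MR replicates 1 to 4, against 14.4, 12.0, 10.1 and 11.8 CPM in Sham replicates 1 to 4. Both genes were highest in Sham replicate 1 and lowest in MR replicate 3. This was not particular to the pair, as over all 77 members these libraries were the highest in 68 and the lowest in 35. Mrpl46 and Mrps11 had log2 fold changes of −0.09 and −0.10. They share exon bases, 12.2% of Mrpl46 and 7.97% of Mrps11, so with the strand setting unknown part of their counts may be shared.

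Other such pairs join members to genes of respiration and mitochondrial gene expression. Mrpl36 starts 29 bases from Ndufs6, a subunit of complex I, and Mrpl47 starts 615 bases from Ndufb5, another subunit of complex I, with overlap in both pairs. Mrps12 points away from Sars2, the mitochondrial seryl-tRNA synthetase, at 172 bases, and Mrpl43 overlaps Twnk, the mitochondrial DNA helicase, with starts 779 bases apart. Mrpl43 and Twnk overlap in their exons (33.4% of Mrpl43), so their counts are uncertain. Of the 29 partner genes that were tested none was called and 19 were below 0, with a median log2 fold change of −0.04. The 33 members with such a partner also had a median of −0.04. The medians were −0.03 in the partners and 0.04 in the members when Sham replicate 1 was left out.

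The rest of the mitochondrial translation pathway was likewise without a called gene. Of 25 tested assembly factors 13 were below 0, with a median of −0.01, and of 0.03 without Sham replicate 1. Eral1, a GTPase that binds the small subunit RNA during assembly, had 17.0, 15.7, 13.7 and 14.1 CPM in MR replicates 1 to 4, against 19.0, 18.5, 17.3 and 18.8 CPM in Sham replicates 1 to 4. All its MR values lay below all its Sham values, with a log2 fold change of −0.28 (SE 0.09, edgeR FDR 0.132). The same held for Mterf3, Gatb, Nars2, Lrpprc, Cox6a2 and Sdha, of this and the other lists. Over all genes tested 8.1% had groups that did not overlap, and the share in each list was not counted. Mrm1, a methyltransferase of the large subunit RNA, was at −0.26 (edgeR FDR 0.234), and Mterf3, a factor of mitochondrial ribosome assembly, at −0.15 (edgeR FDR 0.338).

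Of 5 subunit genes that carry other symbols 4 were below 0, with a median of −0.10, which came to −0.01 without Sham replicate 1, among them Dap3, a GTP-binding small subunit protein, at −0.13 (edgeR FDR 0.442). Of 13 translation factors 9 were below 0, with a median of −0.02, and of 0.04 without Sham replicate 1. Mtif2, the initiation factor that brings the first tRNA, was at 0.11 (edgeR FDR 0.479), and Oxa1l, the inner membrane insertase that binds the ribosome, was at −0.04 under TMM scaling and 0.01 with library totals. Of 20 genes for charging mitochondrial tRNAs 10 were below 0, with a median of −0.01, and Mars2, the methionyl-tRNA synthetase, was at 0.17 (edgeR FDR 0.333). Gatb and Nars2, of the same list, went the other way, at −0.16 and −0.15 (edgeR FDR 0.336 and 0.390). Of 25 genes of mitochondrial RNA synthesis and processing 15 were below 0, with a median of −0.05, and of −0.01 without Sham replicate 1. Lrpprc, which stabilises mitochondrial messenger RNAs, averaged 250.8 ± 8.92 CPM in MR and 280 ± 14.2 CPM in Sham (SD, n = 4 each), at −0.16 with an edgeR FDR of 0.295.

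The messenger RNAs that the mitochondrial ribosome translates did not pass the test either. Of the 13 encoded by the mitochondrial genome 12 were below 0, with a median of −0.02. Without Sham replicate 1 there were 8 below 0, again with a median of −0.02. The median was 0.02 with library totals, where that of all genes was 0.05, and 0.02 with the length trend removed. The estimates of the 13 ranged down to −0.57 for mt-Nd3, a complex I subunit, whose standard error was 0.51 and whose edgeR FDR was 0.664. Nuclear oxidative phosphorylation genes had a median of −0.11 with 69 of 76 below 0, and cytosolic ribosomal protein genes a median of −0.18 with 76 of 78 below 0. Without Sham replicate 1 these medians came to −0.02 and −0.07. No gene of either list was called with all 8 libraries in the edgeR test. Cox6a2, the muscle form of a cytochrome oxidase subunit, was at −0.29 (edgeR FDR 0.111), and Rpl5, a cytosolic large subunit protein, at −0.28 (edgeR FDR 0.216). Rpl7a, also of the cytosolic list, was higher in MR, at 0.27 (edgeR FDR 0.214). Cox6a2 passed under 4 alternatives, with an FDR of 0.0127 by DESeq2 and 0.0446 by limma-voom, and Rpl5 passed with no filter on low counts, with an FDR of 0.0271. Rpl7a also passed with no filter, at 0.27 with an FDR of 0.0276. At an unadjusted p under 0.05 there were 7 of the 76 oxidative phosphorylation genes and 21 of the 78 cytosolic ribosomal protein genes, beside 2 of the 77 mitochondrial ribosomal protein genes and 15.1% of all genes tested, or 9.21% and 26.9% of the 2 comparison lists and 2.60% of the members. Of these cytosolic ribosomal protein genes 20 were below 0 and 1 was above 0. Whether the lists differed from each other was not tested.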

How the data were processed

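Messenger RNA libraries of mouse heart, 4 labelled MR and 4 labelled Sham, were compared. Per the labels' protocols, frozen tissue was powdered before TRIzol extraction, and an ABclonal mRNA kit was used for the libraries. The submitters' processing notes name HISAT2 2.0.5 and mm10 without roles; how reads were counted, with which annotation and strand setting, is not given in the sources used here. Deposited values are the authors' raw counts of reads, 1 column per library, for genes with Ensembl identifiers.

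Biotypes, coordinates and exon lengths came from GENCODE M21 (GRCm38, which mm10 names), where 32350 identifiers matched and 755 did not. Genes were filtered with filterByExpr (minimum count 10, minimum total count 15), scaled by TMM (factors 0.967 to 1.019) and tested over all 8 libraries with the robust quasi-likelihood F test of edgeR 4.0.16 in R 4.3.3, with Benjamini-Hochberg adjustment over all 16603 genes tested; calls are at an FDR of 0.05. The biological coefficient of variation was 0.12. All 77 members passed the filter. Gene lists were described by counts and medians and not tested. The script was tested on simulated data.

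Alternatives were RLE factors, library totals only, DESeq2 1.42.0, no filter, a minimum of 1 CPM in 4 libraries, voom of limma 3.58.1 with quality weights, no robust moderation, removal of a trend with exon length, assignment of subunits by structure, and each library left out. The members and lists were chosen with earlier results of these data known. Named members are the 8 large and 6 small subunit genes with the lowest p, the 3 highest and 2 lowest by RPKM in each subunit, and 13 picked by role; in other lists, the 3 with the lowest p were eligible. Mrpl46, Mrps11, Mrpl36 and Mrpl43 were added for their neighbouring genes. Replicate numbers follow accession order and only name libraries; the labels do not tie libraries to separate animals, so p-values measure the spread between libraries, which may be technical. The numbers in the library titles fall in a separate block for each group, and any handling that follows them cannot be told apart from MR.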

Additional observations from a re-analysis of the deposited data

Results flagged for a closer look

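A value was marked where the highest or lowest of the 4 libraries of a group stood apart from the other 3 by a gap, as a share of the group's range, beyond Dixon's 95% limit. Of 70 groups of values examined, 8 were marked, and chance marks about 1 in 20 such groups.

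Sham replicate 1 was marked as the highest Sham library for Mrpl11 at 45.1 CPM, Mrpl17 at 33.0 CPM, Mrps23 at 155 CPM and Mrps36 at 73.6 CPM. It was also marked for the median deviation of the large subunit genes, at 0.25 on the log2 scale. In the other 3 Sham libraries Mrps23 was at 129.9, 129 and 127 CPM, and in MR replicates 1 to 4 it was at 132, 146, 140.5 and 142 CPM. These genes share 1 library and are not separate observations of it.

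In the MR group, MR replicate 2 was marked as the highest library for Mrpl55 at 54.1 CPM and for Mrps15 at 39.0 CPM. MR replicate 3 was marked as the lowest for Mrps12 at 13.9 CPM, while the other 3 MR libraries lay at 16.3 CPM.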

How the results depend on the processing

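No paired analysis was possible because the labels give the groups no shared replicate numbers. The number of members called was 0 in the edgeR analysis and under every alternative run except no filter on low counts and Sham replicate 3 left out, each with 1 called gene, Mrps35. The number of called genes over all genes tested was 76, and it came to 936 with no filter, 688 with DESeq2, 429 with limma-voom and 244 with the length trend removed, and ran from 3 to 887 with single libraries left out; the cause was not tested. With libraries left out, the number of members called ran from 0 to 1, the median log2 fold change of the large subunit from −0.08 to 0.05, that of the small subunit from −0.12 to 0.0012 and the difference of the medians (large minus small) from 0.0016 to 0.0465. Each of the subunit medians was highest without Sham replicate 1. Scaling by library totals moved the median of all genes to 0.05. Of the named genes in the comparison lists, Rpl7a, Rpl5, Rps3a1, Cox6a2, Sdha and Ndufv1 passed the threshold under 1 or more alternatives, 12 gene and setting pairs in all. In these pairs Rpl7a was above 0 and the other genes were below 0. Among single genes, the log2 fold change changed sign in 15 named members and Oxa1l, and no such value was past the threshold. With library totals it was 0.034 for Mrpl17, 0.0348 for Mrpl44, 0.0003 for Mrps12, 0.0171 for Mrps16, 0.0318 for Mrps18a, 0.0142 for Mrps18b, 0.0142 for Mrps34 and 0.0059 for Oxa1l. With limma-voom it was 0.0264 for Mrpl17, 0.0175 for Mrpl44, 0.0247 for Mrps12, 0.0196 for Mrps16, 0.0226 for Mrps18a and 0.0223 for Mrps18c, and with the length trend removed it was 0.0167 for Mrpl44. With libraries left out it ran from −0.1411 to 0.0556 for Mrpl12, −0.0445 to 0.0438 for Mrpl17, −0.0171 to 0.0566 for Mrpl42, −0.0661 to 0.0486 for Mrpl44, −0.0223 to 0.088 for Mrpl55, −0.1056 to 0.0227 for Mrps10 and −0.0892 to 0.0386 for Mrps12. It ran from −0.0946 to 0.0711 for Mrps16, −0.071 to 0.0829 for Mrps18a, −0.0879 to 0.0136 for Mrps18b, −0.1445 to 0.1125 for Mrps18c, −0.1058 to 0.0128 for Mrps21, −0.1393 to 0.0287 for Mrps22, −0.1221 to 0.0385 for Mrps34 and −0.1063 to 0.0012 for Mrps36. Each member had at least 313 counts in every library, and the part of counting error in the spread between libraries was not measured.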
